A study of Caenorhabditis elegans with 3 samples.

Results

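The cytosolic ribosomal protein genes of Caenorhabditis elegans are the protein-coding genes with names that begin with rpl- (proteins of the large ribosomal subunit), rps- (proteins of the small subunit) or rla- (acidic proteins of the ribosomal stalk). Members were taken by name alone from Ensembl annotation release 115 of the WBcel235 genome. This gave 81 of 19985 protein-coding genes (0.405%): 47 rpl-, 31 rps- and 3 rla- genes. The set itself was chosen with earlier results of these data known. The data are chromatin immunoprecipitation sequencing (ChIP-seq) peak lists for EGL-27 tagged with green fluorescent protein (GFP), from whole, mixed-sex larvae of the first larval stage (L1). All 3 biological replicates were of strain OP177, which carries the allele unc-119(ed3) III and, as an insertion, wgIs177, which expresses the tagged EGL-27; replicate 3 is noted to carry GFP-FLAG at the C-terminus. Worms of replicates 1 and 2 came from a stock centre (CGC), and those of replicate 3 came from the submitting laboratory and were sonicated with a microtip. The replicates form a single group, and no peak list from untagged worms or from input DNA was used here. The labels do not state which promoter drives the transgene. Signal brought down with the tagged protein, and signal that any immunoprecipitation would give at these promoters, therefore cannot be told apart. Peaks of whole larvae also do not show in which cells the protein was bound.

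Ribosomal proteins assemble with ribosomal RNA into the large and small subunits of the ribosome, and growing larvae need them in nearly equal amounts, so their genes are usually transcribed at high levels and together. EGL-27 resembles the MTA (metastasis-associated) proteins, subunits of the NuRD complexes that remodel nucleosomes and remove acetyl groups from histones, and it contains a zinc finger of the GATA type. Many worm transcripts lose their first bases by trans-splicing, so the annotated 5′ end of a gene can lie downstream of the place where transcription starts.

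The sequences under the summits of these genes are shown first, because the letters shared among them are described further on. Each run is 101 bases centred on a summit of the list thresholded by irreproducible discovery rate (IDR), read 5′ to 3′ on the strand of the gene from the RefSeq WBcel235 (ce11) assembly. Capitals mark the 6 letters ACCGTA, or TACGGT where the copy is on the other strand. The first set holds 7 of the 10 summits that have this run. Their positions are chrIII:3867537-3867637 (rpl-3, plus strand), chrIII:7208052-7208152 (rpl-6, plus strand), chrX:2242898-2242998 (rpl-11.2, minus strand), chrII:5055332-5055432 (rpl-22, plus strand), chrII:14154526-14154626 (rpl-43, plus strand), chrIII:3505314-3505414 (rpl-16, minus strand) and chrIV:4750036-4750136 (rpl-20, minus strand).
rpl-3: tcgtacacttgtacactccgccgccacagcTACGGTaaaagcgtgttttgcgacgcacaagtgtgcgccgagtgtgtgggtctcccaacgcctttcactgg
rpl-6: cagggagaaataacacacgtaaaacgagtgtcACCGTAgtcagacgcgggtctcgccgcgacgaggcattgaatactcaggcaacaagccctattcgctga
rpl-11.2: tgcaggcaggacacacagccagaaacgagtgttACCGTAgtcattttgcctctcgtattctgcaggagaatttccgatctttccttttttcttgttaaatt
rpl-22: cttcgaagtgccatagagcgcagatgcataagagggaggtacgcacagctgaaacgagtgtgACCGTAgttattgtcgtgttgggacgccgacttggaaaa
rpl-43: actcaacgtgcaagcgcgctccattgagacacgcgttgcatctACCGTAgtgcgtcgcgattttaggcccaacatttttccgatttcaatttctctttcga
rpl-16: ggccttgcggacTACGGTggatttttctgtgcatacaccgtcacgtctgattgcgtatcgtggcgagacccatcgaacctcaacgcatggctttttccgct
rpl-20: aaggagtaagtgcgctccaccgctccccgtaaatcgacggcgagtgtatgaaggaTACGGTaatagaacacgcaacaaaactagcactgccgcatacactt

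The second set holds 3 summits of high signal that lack it, and none of the 10 windows shown overlaps an annotated exon. Their positions are chrIV:1659248-1659348 (rps-28, plus strand), chrIII:5679094-5679194 (rps-12, plus strand) and chrIII:7854660-7854760 (rpl-35, plus strand).
rps-28: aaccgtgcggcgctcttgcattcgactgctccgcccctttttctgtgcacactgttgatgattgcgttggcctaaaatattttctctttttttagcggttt
rps-12: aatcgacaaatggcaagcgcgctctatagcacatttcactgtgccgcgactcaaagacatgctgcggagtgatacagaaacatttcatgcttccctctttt
rpl-35: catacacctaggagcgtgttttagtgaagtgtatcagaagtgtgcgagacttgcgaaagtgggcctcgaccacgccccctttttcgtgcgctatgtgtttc

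EGL-27 peaks were frequent at ribosomal protein genes. A gene was counted when the summit of a peak, the position named in the deposited list, lay between 2000 bp upstream of its 5′ end and its 3′ end. With this rule 23 of the 81 ribosomal protein genes had a summit of the IDR list of 705 peaks (28.4%, exact 95% binomial interval 18.9 to 39.5, counting error only), while 3.56% of all protein-coding genes had one. Among the 19904 other protein-coding genes 689 had one (3.46%), so the share among ribosomal protein genes was 8.2 times as high. The 23 genes had 23 different summits, which made up 3.26% of the list. With 1 replicate left out and only IDR peaks inside the 705 highest-signal peaks of both other replicates kept, the list shrank to 239 to 305 peaks: 8 genes remained counted without replicate 1, 11 without replicate 2 and 9 without replicate 3. The share stayed 6.76 to 9.72 times that of other genes in these smaller lists.

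The same count was made in each replicate from its own 705 peaks of highest signal (its top list), so that list length did not enter. Replicate 1 had such a summit at 18 ribosomal protein genes (22.2%; 3.28% of all protein-coding genes). In replicate 2 there were 22 (27.2%; 3.62% of all protein-coding genes), and in replicate 3 there were 16 (19.8%; 3.17% of all protein-coding genes). The mean was 18.7 ± 3.06 genes, or 23% ± 3.77 (SD, n = 3), and the ratio to the share of other genes was 6.93 in replicate 1, 7.71 in replicate 2 and 6.37 in replicate 3. Agreement gene by gene was lower. Only 15 ribosomal protein genes had a top-list summit in 2 or more replicates (18.5%; 2.59% of all protein-coding genes). Leaving out replicate 1, so that both remaining lists were required, gave 9. In all 3 lists there were 8 (9.88%; 1.06% of all protein-coding genes).

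Most of the remaining genes had weaker peaks. The relaxed list of the pooled replicates, which keeps background as input for the IDR procedure, holds 23218 peaks and had a summit at 72 ribosomal protein genes (88.9%; 60.5% of all protein-coding genes). The relaxed lists of the single replicates had one at 66 genes in replicate 1 (81.5%; 48% of all protein-coding genes), 71 in replicate 2 (87.7%; 67.9%) and 73 in replicate 3 (90.1%; 71.6%). Many genes of any kind have a peak in these lists, so the rank within the list tells the genes apart better than presence does. The highest pooled summit of a ribosomal protein gene had a median rank of 1615 (n = 72, rank 1 being the highest signal), and that of other genes had a median rank of 8303 (n = 12025). Both medians include the genes with an IDR summit, 23 and 689, so they do not describe the weaker peaks alone.

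The IDR and pooled lists are not separate measurements. All 705 IDR summits are in the pooled list, and each of the 23 ribosomal protein genes had the same rank in both. The first 705 pooled ranks held 23 ribosomal protein genes and 689 other genes, as the IDR list did. Just below the end of the IDR list the ribosomal protein genes were still frequent. Their best summit lay within the first 1410 pooled peaks for 33 genes (40.7%; 6.8% of all protein-coding genes). Ranks 706 to 1410 alone added 10 of them (12.3%), against 3.2% of other genes. Each gene was counted once, at its best rank, and by rank 5000 this had placed 61.7% of ribosomal protein genes and 20.0% of other genes. Fewer ribosomal protein genes were thus left to count, so smaller shares further down do not show that they had fewer weak peaks. Down to rank 10000 stood a further 13.6% of ribosomal protein genes and 14.9% of other genes, and from there to the end 13.6% of ribosomal protein genes and 25.5% of other genes. No pooled summit at all was found for 11.1% of ribosomal protein genes and 39.6% of other genes.

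**Figure D1:**
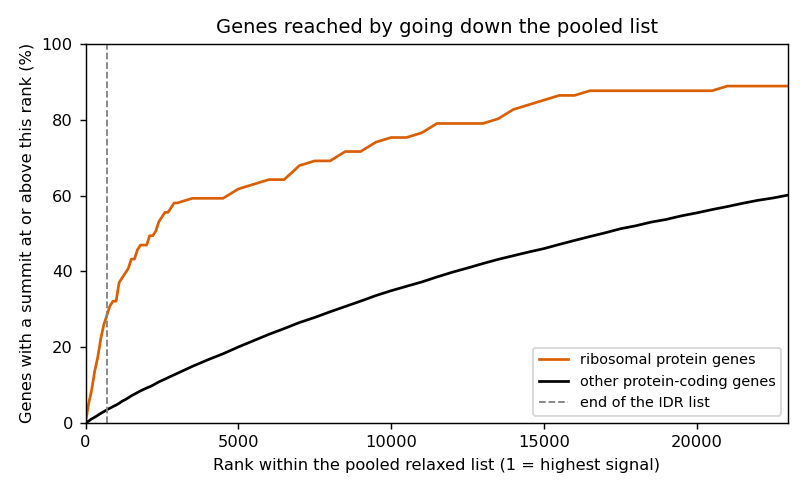
Share of genes (%, vertical axis) with at least 1 summit at or above a given rank of the pooled relaxed list (horizontal axis, rank 1 is the highest signal), for ribosomal protein genes (orange) and other protein-coding genes (black). The dashed line is the end of the IDR list at rank 705, where the curves stand at 28.4% and 3.46%, and the orange curve climbs fastest before rank 5000.

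Among genes of the large subunit, 13 of 47 had an IDR summit (27.7%). The highest signal of all belonged to rpl-3 (WBGene00004414), which encodes a protein that reaches toward the peptidyl transferase centre: its signal was 103.5 (IDR rank 25), and the peak over its summit ranked 460 in replicate 1, 62 in replicate 2 and 14 in replicate 3. For rpl-20 (signal 91.3, IDR rank 46) the replicate ranks were 64, 43 and 145, and for rpl-35 (69.4, rank 101) they were 89, 193 and 214. RPL-35 lies near the exit of the peptide tunnel. These 3 genes were in the top list of every replicate. The same held for rpl-11.2 (47.6, rank 272), with replicate ranks of 248, 120 and 593. RPL-11 binds the smallest RNA of the large subunit.

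At each of the other large-subunit genes with an IDR summit, the peak over the summit was outside the top list of at least 1 replicate. The summit 37 bp upstream of rpl-12, whose product forms the base of the stalk, had signal 56.0 (rank 188) and ranked 404, 1185 and 129. For rpl-43 (49.4, rank 249) the ranks were 209, 78 and 8907, so that replicate 3 stood far below the others. For rpl-6 (49.1, rank 251) they were 530, 1005 and 311. At rpl-15 (41.5, rank 389) replicate 2 was the low one, with ranks of 109, 5654 and 423. Replicate 1 was low at rpl-41.2 (41.0, rank 398), which encodes one of the shortest ribosomal proteins, with ranks of 8008, 518 and 264. It was also low at rpl-16 (40.0, rank 423; ranks 2907, 272 and 729) and at rpl-22 (39.1, rank 451; ranks 3507, 207 and 796). For rpl-29 (37.5, rank 496) the ranks were 196, 4911 and 469, and for rpl-23 (34.3, rank 593) they were 5690, 644 and 1824. No single replicate was thus the low one throughout.

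Among genes of the small subunit, 10 of 31 had an IDR summit (32.3%), a share whose difference from that of the large subunit was not tested. The highest were rps-28 (88.2, rank 51), with ranks of 58, 102 and 94 in replicates 1, 2 and 3, and rps-12 (82.2, rank 64), with ranks of 123, 90 and 157. RPS-28 lies near the path by which mRNA leaves the subunit. rps-1 (60.5, rank 155) ranked 289, 248 and 161. These 3 genes were in every top list, with the narrowest spread of ranks among the small-subunit genes. rps-20 (54.1, rank 206) ranked 333, 65 and 3184.

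The remaining 6 were lower. They were rps-16 (41.7, rank 379; ranks 1703, 1957 and 266), which encodes a protein with a tail that touches tRNA in the decoding region, rps-24 (38.4, rank 474), rps-18 (36.8, rank 514), rps-15 (35.4, rank 557; ranks 379, 3377 and 1115), rps-21 (33.2, rank 635; ranks 747, 10615 and 1328) and rps-19 (33.2, rank 636; ranks 2993, 268 and 5296). Replicate 1 had no peak over the summits of rps-24 and rps-18, which ranked 125 and 290 in replicate 2 and 754 and 1008 in replicate 3. The summit of rps-21 was in no top list.

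**Figure D2:**
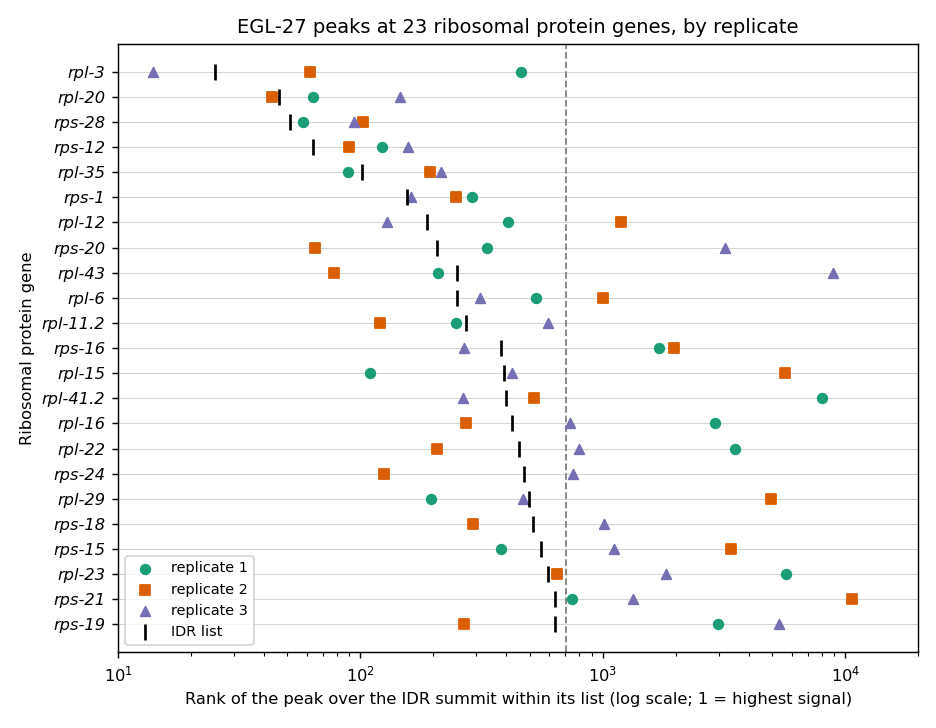
Rank (log scale, horizontal axis) of the peak over each of the 23 IDR summits in replicate 1 (circles), replicate 2 (squares) and replicate 3 (triangles), with the rank in the IDR list as a bar and 1 row per gene. The dashed line marks rank 705: the first 6 genes lie left of it in all 3 replicates, and rps-24 and rps-18 have no circle because replicate 1 had no peak there.

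Over all 23 summits, a peak was present in 21 of 23 cases in replicate 1 and in 23 of 23 in replicates 2 and 3. It was in the top list in 14, 16 and 13 cases. Of the 23 IDR summits, 7 lay inside top-list peaks of 3 replicates, 7 of 2, 8 of 1 and 1 of none. Where a replicate peak lay over the IDR summit, which limits the distance by the width of the peak, its own summit was shifted by a median of 45 bp in replicate 1 (highest 118), 12 bp in replicate 2 (highest 90) and 20 bp in replicate 3 (highest 106), and all 23 IDR peaks were 390 bp wide. Within the IDR list the summits of ribosomal protein genes were not concentrated at the top. Their median rank was 379 and their median signal 41.7, against a median rank of 353 and a median signal of 42.9 for the whole list, and 11 stood among the 352 peaks of highest signal.

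None of the 3 stalk genes had an IDR summit. rla-1 came closest, with pooled rank 1042 and signal 26.5, but its summit lay 1360 bp upstream. That is in or beyond Y37E3.8, a neighbour on the same strand with a gap of only 105 bp to rla-1. Only replicate 2 had a top-list summit in the window of rla-1 (best ranks of 7657, 315 and 4608 in replicates 1, 2 and 3). rla-2 (pooled rank 11361, 1481 bp upstream) and rla-0 (14078, 72 bp upstream) had no summit in replicate 1. The acidic stalk proteins recruit translation factors to the ribosome.

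Paralogs of a pair could stand far apart in rank. rpl-11.2 had pooled rank 272, while the best summit of rpl-11.1 ranked 8024 and lay 457 bp inside the gene. rpl-41.2 had rank 398 and rpl-41.1 rank 9961. These genes are direct neighbours on the same strand with a gap of 699 bp, so their windows overlap. The summit of rank 398 lay between them, 265 bp upstream of rpl-41.2 and past the 3′ end of rpl-41.1. For rpl-24.2 and rpl-24.1, the ranks 752 and 1049 were closer, but the first summit lay 147 bp and the second 1461 bp upstream. Of the pair that encodes a protein of the tunnel exit, rpl-25.1 had rank 20958 and rpl-25.2 had no pooled summit. Since the coordinates differ, each gene of a pair was read from its own window, although those of rpl-41.1 and rpl-41.2 overlap. The sources used here do not say how reads shared by near-identical copies were placed.

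The 5 genes of highest pooled signal without an IDR summit were rpl-9 (rank 717, 182 bp upstream), rpl-24.2, rps-23 (871, 260 bp), rla-1 and rpl-24.1. The summits of rla-1 and rpl-24.1, 1360 and 1461 bp upstream, could belong to other genes. They lay in or beyond the upstream neighbours Y37E3.8 (gap of 105 bp) and rps-10 (gap of 609 bp). RPS-23 sits at the decoding centre. In replicates 1, 2 and 3 the best summit in the window of rps-23 ranked 3782, 950 and 2274. These lay at -12, 265 and -574 bp upstream, where values below 0 are inside the gene. They were thus not the same peak, and none was in a top list. In contrast rps-3, named after its values were seen, was in the top lists of replicates 1 and 2 (ranks 478 and 279) and had rank 13581 in replicate 3. Its best summits in replicates 1, 2 and 3 lay 282, 474 and 352 bp upstream. Genes with no pooled summit included rpl-4, rpl-10, rpl-17, rpl-27, rpl-30, rpl-37, rpl-42 and rps-2. Of the 81 genes, 1 (rpl-42) had no summit in any of the 5 lists.

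The summits lay in a narrow band upstream of the genes. All 23 IDR summits were upstream of the annotated 5′ end, at a median of 310 bp (quartiles 266 and 406, range 37 to 1760), and 17 were 200 to 500 bp upstream (73.9%). Among other genes with an IDR summit, 21.5% had it in that band and 25.4% had it inside the gene. Their median of 275 bp upstream was similar (quartiles -13 and 1011), so the groups differ in spread more than in the middle value. The band holds both quartiles of the ribosomal protein genes, so a comparison of shares in it favours them.

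The same band was present in weaker peaks that the IDR list leaves out. For the 49 ribosomal protein genes with a pooled summit but no IDR summit, the best summit was at a median of 355 bp (quartiles 222 and 437), with 55.1% in the band of 200 to 500 bp. Over all 72 genes with a pooled summit the median was 325 bp, 61.1% were in the band and 5.56% lay inside the gene. For other genes the median was 120 bp, 11.5% were in the band and 44.3% lay inside the gene. Gene length moves with this comparison: the median was 754 bp for ribosomal protein genes and 2033 bp for other genes, so a summit inside the gene has less room in the ribosomal set. With summits inside genes left out, 63.8% of 69 ribosomal protein genes were in the band and 19.8% of 8275 other genes. The median gap to the upstream neighbour was also shorter, at 566 bp against 1162 bp. Among genes with a gap under 1000 bp and a summit upstream, 60.3% of 63 ribosomal protein genes were in the band, against 22.4% of 3859 other genes.

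**Figure D3:**
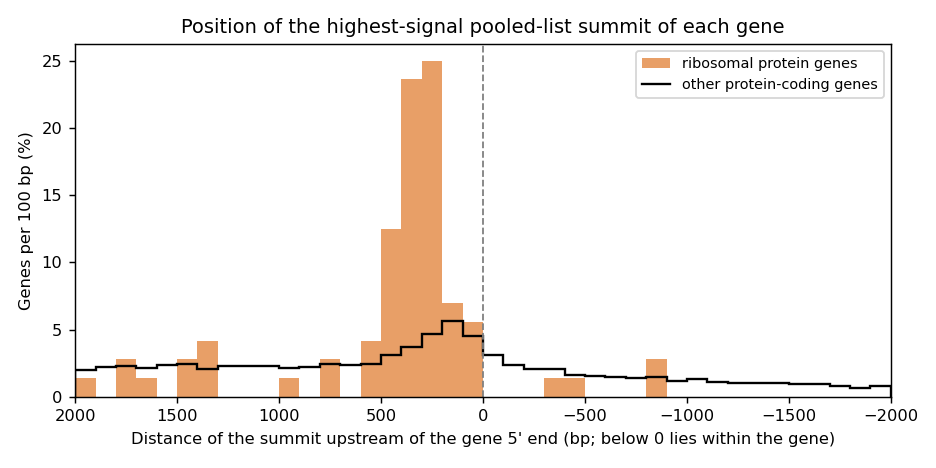
Position of the highest pooled summit of each gene relative to its annotated 5′ end (horizontal axis, bp upstream, values below 0 lie within the gene) as the share of genes per 100 bp (%, vertical axis), for 72 ribosomal protein genes (orange bars) and 12025 other protein-coding genes (black line). The bars pile up between 200 and 500 bp, where 61.1% of ribosomal protein genes and 11.5% of other genes stand.

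Several summits could belong to a neighbour. For 13 of the 23 the ribosomal protein gene was the protein-coding gene with the nearest 5′ end, and for 10 another gene was nearer. The summits 1706 bp upstream of rps-16 and 1760 bp upstream of rpl-16 lay 24 bp from the 5′ end of fib-1, which encodes the rRNA methyltransferase fibrillarin, and 263 bp from that of lias-1, which encodes lipoic acid synthase. Each of these neighbours lies directly upstream on the same strand, with gaps of only 109 and 105 bp to the ribosomal protein gene. The other 8 neighbours are divergent. They include ska-3, which encodes a kinetochore protein (139 bp, against 154 bp to rps-12), ify-1, which encodes securin (203 bp, against 234 bp to rpl-22), and sec-61.A, which encodes the channel of the secretory pathway. The rps-18 summit lay 183 bp from the 5′ end of sec-61.A, in an untranslated exon of that gene. With a peak given only to the gene of the nearest 5′ end, 13 ribosomal protein genes remained counted, and their share was 6.78 times that of other genes.

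The counted genes were spread over the genome. On chromosome III 8 of 18 ribosomal protein genes had an IDR summit (44.4%, against 4.88% of other genes there), on chromosome IV 7 of 18 (38.9%, against 3.59%), on chromosome I 4 of 25 (16%, against 4.7%) and on chromosome II 2 of 10 (20%, against 2.65%). Chromosomes V and X had 1 of 8 (12.5%, against 1.85%) and 1 of 2 (50%, against 4.58%). Differences between chromosomes were not tested. With a peak given only to the gene of the nearest 5′ end, chromosomes II and V had 0 counted ribosomal protein genes, since the summits of rpl-22, rpl-43 and rps-16 lie nearer to other genes. Genes with an upstream neighbour on the same strand had a summit in 9 of 27 cases (33.3%) and genes with a divergent one in 14 of 54 (25.9%). The 9 include rps-16 and rpl-16, whose summits lie nearer to that neighbour. Among other genes it was 2.63% with a neighbour on the same strand and 4.47% with a divergent one. Differences between these classes were not tested. Small nucleolar RNA genes, which guide changes of rRNA bases, lie nested in 13 ribosomal protein genes. Of these 3 had an IDR summit (23.1%), against 20 of the 68 without a nested one (29.4%).

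GAGAGA, frequent within 50 bp of other IDR summits, was scarce within 50 bp of those of ribosomal protein genes. The run lay within 50 bp, on either strand, at 2 of 23 summits of ribosomal protein genes (8.7%, exact 95% binomial interval 1.07 to 28), those of rpl-29 and rps-1. At the other 681 nuclear IDR summits it was present at 289 (42.4%), and at 55 of the 137 other IDR summits that lay 200 to 500 bp upstream of a protein-coding gene (40.1%). Windows centred 310 bp upstream of all other protein-coding genes held it in 5.99%. The count depends on the window: 6 of the 23 summits had GAGAGA within 100 bp. No share at other summits is given here for that width, so whether the run is scarce there too cannot be stated. In the whole 500 bp upstream, 39.1% of the 23 genes had it, against 48.9% of other genes with an IDR summit and 29.9% of all other genes. The share in the upstream region thus lay between those of the other groups, while the share at the summit was near that of the upstream windows.

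Other spellings were at few or none of these summits. CTGCGTCTC, a run known from worm regions that many factors occupy, was at none of the 23 summits (exact interval 0 to 14.8%), at 15.7% of the other nuclear IDR summits and in 0.674% of the windows 310 bp upstream of other genes. The E-box letters CACGTG were at none, against 6.75% of other IDR summits and 1.53% of the upstream windows. The spellings bound by GATA factors (AGATAA or AGATAG or TGATAA or TGATAG) were at none of the 23, against 19.7% of other IDR summits and 21.5% of the upstream windows. TATAAA was at 1 (rps-21; 4.35%), against 3.96% of other IDR summits and 12.6% of the upstream windows. The share of G and C within 50 bp was 48.3% ± 6.04 (SD, 23 windows) at the ribosomal protein summits and 48.2% ± 7.26 at other nuclear IDR summits, but 34.4% ± 8.42 in the upstream windows. Base composition was thus near equal in the sets of summits and differed in the upstream windows.

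A count of all 6-letter runs at the 23 summits, both strands merged, was led by AAAAAT, at 11 summits (47.8%), against 12.9% of the other nuclear IDR summits and 51.7% of the windows 310 bp upstream of other genes. Next came ACCGTA, shown in capitals in the sequences above, at 10 (43.5%), against 4.7% of the other nuclear IDR summits and 3.01% of the upstream windows. The overlapping run CCGTAG was at 9 (39.1%), against 2.2% of the other nuclear IDR summits and 1.25% of the upstream windows, and the 7 letters ACCGTAG at 8 (34.8%), against 1.32% of the other nuclear IDR summits. At the 137 other IDR summits 200 to 500 bp upstream of a protein-coding gene, ACCGTA was at 10.2%. It was picked after this count was seen, as the most frequent run that is not mostly A and T, so its share at these summits is a description with no test. Its 10 copies were at rpl-3, rpl-6, rpl-11.2, rpl-16, rpl-20, rpl-22, rpl-43, rps-1, rps-16 and rps-20. Their centres lay 4 to 35 bp from the summit (median 14), 5 on the strand of the gene and 5 on the other strand.

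Genes that did not enter the choice carried the run as well. Among the 58 ribosomal protein genes without an IDR summit, 27 had ACCGTA in the 500 bp upstream of the 5′ end (46.6%), 21 of them on the strand of the gene only and 6 on the other strand only. These windows are not all separate. Divergent pairs such as rpl-39 and rps-30 (gap of 498 bp) share upstream sequence, so a single copy can count for both genes. Among the 23 with an IDR summit 9 had it there (39.1%), a share whose difference from the 58 was not tested. It was present upstream of 13.8% of the 19892 other nuclear protein-coding genes, 19.2% of those with an IDR summit, 22% of translation factor genes and 15.7% of mitochondrial ribosomal protein genes. At the weaker pooled summits of ribosomal protein genes without an IDR summit, it lay within 50 bp of 6 of 48 (12.5%), against 2.75% of the 22465 other nuclear pooled summits outside the IDR list. A match shows only that the letters are in the window.

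Related genes were counted by the same rule. Of 41 translation factor genes 7 had one (17.1%), led by eef-1A.2, which encodes an elongation factor that brings tRNA to the ribosome (signal 98.2, rank 31, 362 bp upstream), iff-2 (84.1, rank 60, 52 bp) and eef-2, which encodes the translocation factor (41.7, rank 381, 52 bp). Of 22 ribosome biogenesis genes 3 had one (13.6%): rbd-1 (42.3), nol-10 (38.7) and fib-1 (41.7), the last being the summit shared with rps-16. Of 70 mitochondrial ribosomal protein genes, which encode the separate ribosome of that organelle, 4 had one (5.71%), led by mrps-7 (52.1), mrpl-28 (40.1) and mrpl-55 (39.4). None of 31 aminoacyl-tRNA synthetase genes and none of 33 proteasome genes had one, although 25 and 26 of them had a pooled summit, with median best ranks of 8609 and 5172. In the top lists of 2 or more replicates the gap to translation factors was small: 15 of 81 ribosomal protein genes (18.5%) and 7 of 41 translation factor genes (17.1%) were there. Differences between these lists were not tested. None of 3 ribosomal protein genes under other names had an IDR summit: ubl-1 and ubq-2, which encode ubiquitin fused to a ribosomal protein, had pooled ranks 954 and 1156 (186 and 431 bp upstream), and rack-1, which encodes a scaffold on the small subunit, had rank 6370 (1363 bp upstream).

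**Figure D4:**
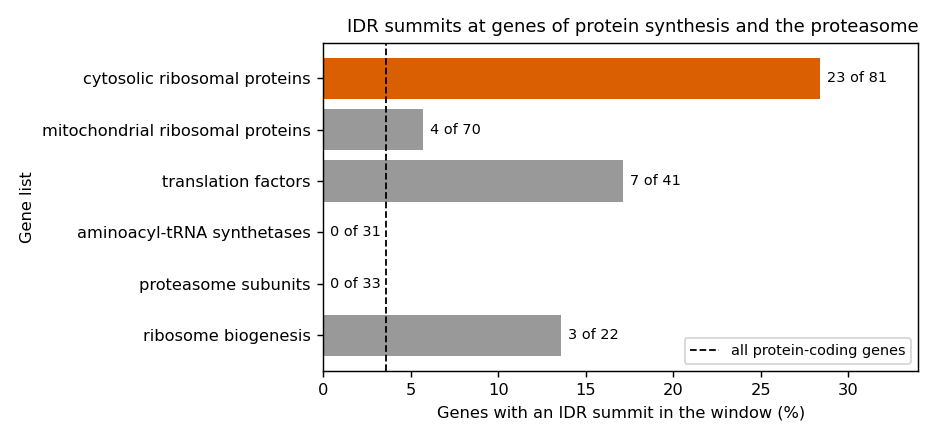
Share of genes with an IDR summit (%, horizontal axis) for cytosolic ribosomal protein genes (orange) and 5 related lists (grey), with the counts beside the bars. The dashed line is the share of all protein-coding genes, 3.56%, and the bar of cytosolic ribosomal protein genes ends at 28.4%.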

How the data were processed

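The authors deposited ChIP-seq peak lists in narrowPeak layout. The signal value of each peak is the authors' own, from their caller, and served to order peaks inside 1 list at a time. Per the deposited library notes, the lists came from the alignments of each replicate, or of the pooled replicates, and a shared control alignment. Aligner, peak caller, IDR threshold and read depth are not given in the sources used here. How precise a peak height is cannot be stated without depth. The deposited ce11 lists were analysed, and the ce10 versions were not used. Gene ends came from Ensembl release 115 (WBcel235), with the 5′ end of a gene at its outermost annotated base, and sequence from RefSeq WBcel235. Peaks were ranked by signal, with ties by position.

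The ribosomal protein genes and all gene lists were chosen with earlier results of these data known, so counts are descriptions beside their background, with no test. Letters were searched on both strands. All members with an IDR summit, the stalk genes, the numbered paralog pairs, the 5 highest members without an IDR summit, up to 8 without a pooled summit and the 3 highest genes of each other list were named. Other genes, and the run ACCGTA, were picked after their values were seen. The window rule was checked on simulated peaks. Python 3.11.15, pandas 2.3.3, numpy 2.4.6, scipy 1.17.1 and matplotlib 3.10.9 were used.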

Additional observations from a re-analysis of the deposited data

How the results depend on the processing

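The count of 23 ribosomal protein genes with an IDR summit was 21, 23 and 19 in the windows of 1000 bp upstream to 500 bp downstream, 2000 bp upstream and 500 bp upstream, and 23 with 1 bp of peak overlap. It was 13 with each peak given to the nearest 5′ end, 11 with the 352 highest IDR peaks, and 8 to 11 with 1 replicate left out, where fewer IDR peaks (239 to 305) were kept. Large-subunit genes numbered 7 with the 352 highest peaks and 5 to 8 with 1 replicate left out. For small-subunit genes these counts were 4 and 3 to 4. Genes in at least 2 top lists numbered 29 with lists of 1410 peaks and 9 to 11 with 1 replicate left out, against 15. With 1 replicate left out both remaining lists were required, so this count could not rise. The share of all protein-coding genes in the longer lists is not given here. GAGAGA was at 1 summit within 25 bp and at 6 within 100 bp, against 2. With 1 replicate left out it was at 1 to 2 of fewer summits, which was 11.1% to 18.2% of them, against 8.7%. The ratio to other genes, recomputed after the data were seen, was 8.2 and ranged from 6.76 to 17.7 over these settings. The median distance ranged from 298 to 310 bp. No paired analysis was possible because all replicates form 1 group. With 3 replicates, no control list and no read depth, the spread between libraries is known only roughly.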
